A study of Homo sapiens with 4 samples.

Results

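The SLC16 family encodes the monocarboxylate transporters, membrane carriers of small organic acids and related solutes. Its genes SLC16A5, SLC16A7, SLC16A9, SLC16A10, SLC16A12 and SLC16A14 were examined in QGP-1 cells, an established line from a human pancreatic neuroendocrine tumour. A list of 9 family genes was chosen from these arrays with the difference between the media already in view, and every probe carrying one of their symbols in the platform's probe table was then taken. This gave 9 probes of 6 genes, out of 28264 probes and 19090 named genes in all. SLC16A1, SLC16A3 and SLC16A6, the other 3 listed genes, were not analysed here.

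The cells had been kept for 24 h at 0.1% serum, either with medium conditioned by pancreatic stellate cells (PSC medium) or without it (mock), after growth at 10% serum. Stellate cells are mesenchymal cells that lay down matrix in the diseased pancreas. Each condition was measured on 2 one-colour arrays, and the labels name no genetic change in the cells and do not say how the mock medium had been treated. Nor do they say whether the arrays of a condition came from separate cultures, so the spread between these arrays may be technical. Errors and p-values of the fit rest on that spread, drawn towards a variance shared by all probes. The number of arrays limits the precision.

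The best known monocarboxylate transporters carry lactate, pyruvate and ketone bodies together with a proton, so that the direction of flow follows the gradients of both. Other members of the family carry quite different solutes, among them aromatic amino acids, thyroid hormones, creatine and carnitine. In normal pancreatic beta cells the lactate transporter gene SLC16A1 and the lactate dehydrogenase gene LDHA are known as genes that are kept at low expression. Basigin and embigin, the products of BSG and EMB, are single-pass proteins that several of the lactate carriers need to reach the cell surface.

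Median intensity on the arrays lay between 800 and 822 in PSC medium and between 662 and 829 in mock medium, and the arrays were quantile normalized. Levels below are log2 values of the normalized intensity of 1 probe, and differences are PSC medium minus mock with the standard error (SE) of the fit across all probes. Intensity depends on the probe as well as on the transcript, so levels of different probes are not read as relative amounts of transcript. Brighter, dimmer and a place above or below the median probe level describe probe signal only. In RNA from a whole culture, fewer cells of a type and less RNA per cell cannot be told apart. Of 8 neuroendocrine marker genes, 7 lay above the median probe level of 9.60. Their summed normalized intensity was 676694 to 694202 in PSC medium and 693290 to 730246 in mock medium. Differences of these 8 ran from -0.45 to 0.39, with 4 positive and 4 negative. Of 9 stellate cell and fibroblast markers, 1 lay above that level, the collagen gene COL1A1, and their sum was 4990 to 5406 in PSC medium and 4157 to 5214 in mock medium. Differences of the 9 ran from -0.25 to 0.37, with 4 positive and 5 negative, and 0 of them passed in limma or had an unadjusted p under 0.05. COL1A1 itself had 11.78 and 11.95 in PSC medium, against 11.76 and 11.40 in mock medium. The sum was 919 to 967 in PSC medium and 560 to 790 in mock medium for 3 macrophage markers, and 1858 to 1940 in PSC medium and 1760 to 2001 in mock medium for 4 acinar cell markers. Of these, 0 of the 3 and 1 of the 4 lay above the median probe level, and 2 of the 4 acinar markers had an unadjusted p under 0.05. Those 2 went in opposite directions, AMY2A at -0.98 and PRSS1 at 0.54. Differences of the macrophage markers ran from -0.10 to 0.62, so sums can hide opposite differences. The part of such markers in the results below was not tested.

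SLC16A12 and SLC16A10 were the genes whose probes differed most between the media. To place these genes, 300 bases around an annotated start of each are shown, 250 before and 50 after. They are read 5′ to 3′ on the strand of the gene from RefSeq on GRCh38.p14. The SLC16A12 gene spans chr10:89430299-89556704, and its window is chr10:89535545-89535844 on the minus strand, inside that span. A gene on the minus strand begins at the upper end of its span, so this window lies at a start within the gene. The SLC16A10 gene spans chr6:111087503-111231194, and its window is chr6:111087253-111087552 on the plus strand. Capitals mark matches, on either strand, to ACGTG or to GCGTG, both of them core letters of the hypoxia response element.
SLC16A12: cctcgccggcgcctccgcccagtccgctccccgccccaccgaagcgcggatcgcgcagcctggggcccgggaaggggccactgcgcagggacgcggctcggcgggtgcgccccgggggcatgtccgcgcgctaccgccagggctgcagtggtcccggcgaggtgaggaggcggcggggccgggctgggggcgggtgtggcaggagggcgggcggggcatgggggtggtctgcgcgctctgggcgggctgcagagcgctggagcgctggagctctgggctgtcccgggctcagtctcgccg
SLC16A10: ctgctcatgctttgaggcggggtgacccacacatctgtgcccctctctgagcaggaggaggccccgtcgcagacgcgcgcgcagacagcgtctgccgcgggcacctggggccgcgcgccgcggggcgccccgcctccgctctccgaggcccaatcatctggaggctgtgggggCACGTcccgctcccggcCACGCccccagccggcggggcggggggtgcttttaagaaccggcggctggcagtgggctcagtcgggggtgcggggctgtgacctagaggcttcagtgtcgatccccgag

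The SLC16A10 window held 1 match to ACGTG and 1 to GCGTG, and the SLC16A12 window held neither. Of 35116 promoter windows of the same length, 21.4% held ACGTG and 36.5% held GCGTG. Neither window held CACGTG, the palindromic E-box bound by MYC, a motif that contains the first core and was present in 7.26% of all windows. TGATGNAA, the composite C/EBP-ATF site, was in neither window and in 3.62% of all windows. The SLC16A12 window was 79.7% G and C and the SLC16A10 window 73.0%, beside a median of 58.7% over all windows. A match describes letters only, and the windows say nothing about which factor was bound. RefSeq windows were at hand for 5 of the 6 genes.

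SLC16A12 encodes MCT12, a creatine carrier whose variants in people are linked to juvenile cataract. Its brighter probe had deposited intensities of 2873 and 2331 in PSC medium, against 6370 and 9515 in mock medium. On the normalized log2 scale these were 11.44 and 11.16 in PSC medium, against 12.86 and 13.08 in mock medium. Both PSC medium arrays were thus low, and the groups did not overlap. The mean level was 11.30 ± 0.20 in PSC medium and 12.97 ± 0.16 in mock medium (SD, n = 2 each), a difference of -1.66 ± 0.18 SE, or 3.17-fold lower in PSC medium.

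The dimmer SLC16A12 probe did not share this. It had levels of 9.00 and 9.03 in PSC medium, against 9.10 and 9.08 in mock medium, and a difference of -0.07 ± 0.14 SE. The groups did not overlap, but the distance between them was small, and without normalization between arrays the difference was 0.06. With the levels of both SLC16A12 probes averaged, the difference was -0.87 ± 0.14 SE.

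SLC16A10 encodes TAT1, a carrier of aromatic amino acids that also moves thyroid hormones. Its brighter probe had levels of 11.70 and 11.94 in PSC medium, against 11.85 and 11.44 in mock medium, and the groups overlapped. The difference was 0.18 ± 0.21 SE, with a 95% interval of -0.34 to 0.70. Its dimmer probe had deposited intensities of 266 and 220 in PSC medium, against 446 and 481 in mock medium. Those correspond to levels of 8.09 and 7.64 in PSC medium, against 9.02 and 8.85 in mock medium. Here the PSC medium arrays were both low, the groups did not overlap, and the difference was -1.08 ± 0.21 SE, or 2.11-fold lower in PSC medium. The pair of SLC16A10 probes therefore had opposite signs, and averaged they gave -0.45 ± 0.16 SE.

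**Figure D1:**
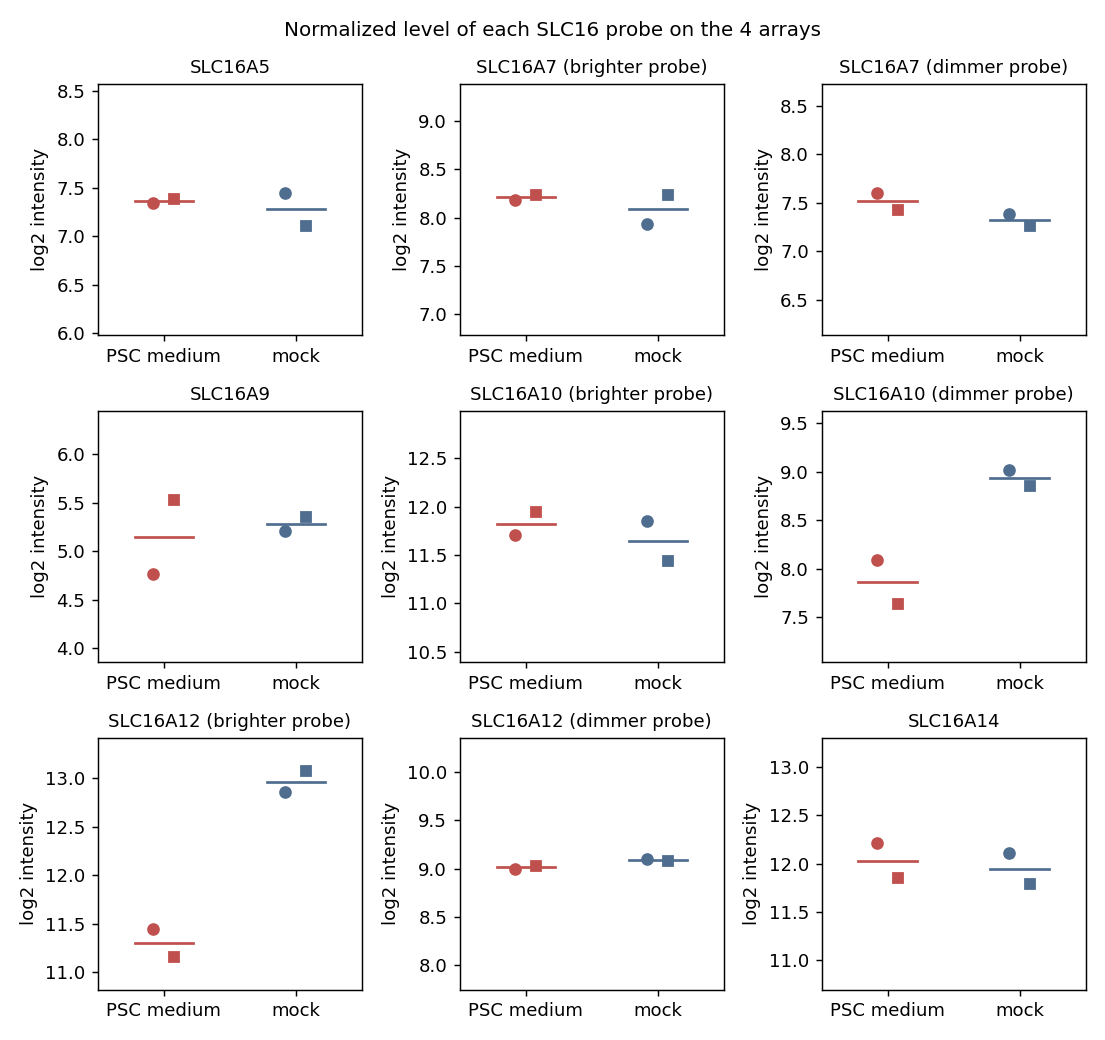
Normalized log2 intensity of the 9 probes on the 4 arrays, with PSC medium in red and mock in blue. Circles are array 1 and squares array 2 of a group, lines are group means, and each panel spans the same range of log2 units. The brighter SLC16A12 probe and the dimmer SLC16A10 probe lie lower on both PSC medium arrays, while the other panels show group means close together.

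SLC16A14 encodes MCT14, whose transported solutes are poorly known. Its single probe had levels of 12.21 and 11.85 in PSC medium, against 12.11 and 11.79 in mock medium. The arrays of either group were further apart than the group means, and the difference was 0.08 ± 0.21 SE (95% interval -0.45 to 0.61). The interval spans both a decrease and an increase of moderate size, so equal levels are not shown.

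SLC16A7 encodes MCT2, a high-affinity carrier of pyruvate and lactate. Its brighter probe had 8.19 and 8.23 in PSC medium, against 7.94 and 8.23 in mock medium, a difference of 0.12 ± 0.17 SE. Its dimmer probe had 7.61 and 7.43 in PSC medium, against 7.39 and 7.26 in mock medium, a difference of 0.20 ± 0.16 SE. The groups overlapped for the brighter probe and were narrowly apart for the dimmer one.

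SLC16A5 encodes a carrier known for transporting the diuretic bumetanide. It had levels of 7.34 and 7.39 in PSC medium, against 7.45 and 7.11 in mock medium, and the mock arrays lay on either side of the PSC medium arrays (difference 0.09 ± 0.18 SE). SLC16A9 encodes MCT9, linked in people to blood carnitine. Its probe was dim, with deposited intensities of 6 and 49 in PSC medium, against 49 and 46 in mock medium. Its levels were 4.77 and 5.53 in PSC medium, against 5.21 and 5.35 in mock medium, and the difference of -0.13 ± 0.28 SE was set by PSC medium array 1, without which it was 0.25. Without normalization the SLC16A9 difference was -1.47, and with median centring -1.60.

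Differences within 0.25 of 0 were found for 7 of the 9 probes, and the median over the 9 was 0.08, beside -0.01 over all probes. Positive differences were found for 5 probes and negative ones for 4. The groups did not overlap for 4 of the 9 probes, against 53.6% of all probes. In the limma fit across all 28264 probes, with Benjamini-Hochberg adjustment and a threshold of 0.05, 1 of the 9 was past the threshold, the brighter SLC16A12 probe, with the lower level in PSC medium. Over all probes 0.633% were past it in either direction and 0.248% with the lower level in PSC medium. Because the genes were chosen with this contrast in view, these counts describe the choice and are no test of it. Over 11 other processing settings the SLC16A12 difference ranged from -1.81 to -1.52, and it was past the threshold in 4 of them. Among the 7 in which it was not past it were those without normalization, with median centring and with any 1 of the 4 arrays left out.

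**Figure D2:**
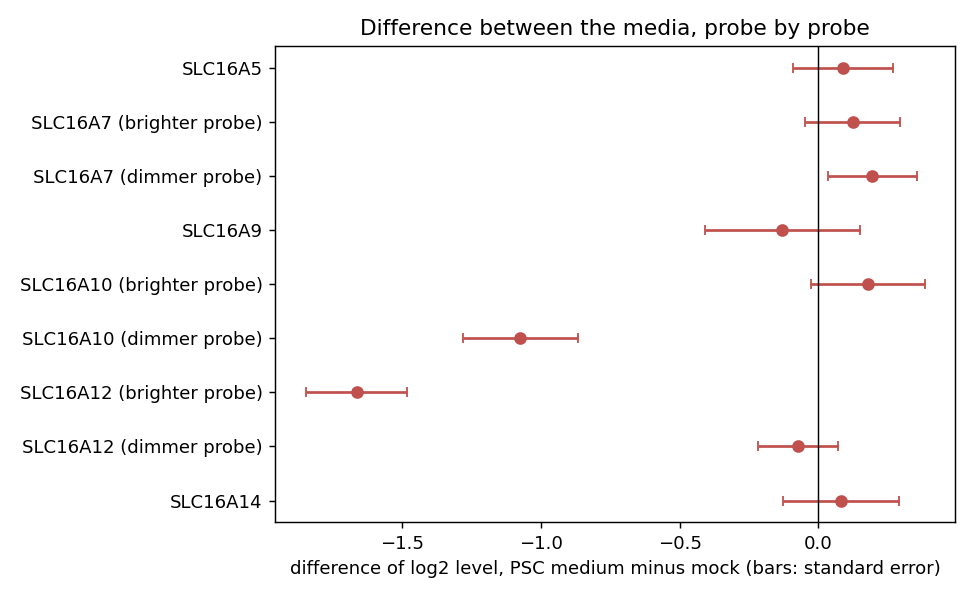
Difference of log2 level, PSC medium minus mock, for each of the 9 probes, with bars of 1 standard error. The brighter SLC16A12 probe lies at -1.66 and the dimmer SLC16A10 probe at -1.08, and the remaining 7 lie between -0.13 and 0.20.

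For 5751 genes with at least 2 probes, the gap between the largest and the smallest difference of a gene's probes had a median of 0.40. The gap was 0.07 for SLC16A7, 1.25 for SLC16A10 and 1.59 for SLC16A12. A gap at least as large as that of SLC16A12 was found in 2.87% of those genes, and one as large as that of SLC16A10 in 5.77%. Probes of opposite sign, as in SLC16A10, were found in 47.4% of the genes. These shares are over all genes with several probes, most of which were not past the threshold. They include genes with more than 2 probes, where wide gaps and opposite signs arise more readily. SLC16A7, SLC16A10 and SLC16A12 have 2 probes each, so the shares are not strictly like for like. Among 37 genes with several probes whose brightest probe was past it, 14 of 47 other probes, or 29.8%, had a difference within 0.25 of 0, as the dimmer SLC16A12 probe did. Of those 14, 10 were below the median probe level, as were 30 of all 47. The sign was that of the brightest probe for 37 of the 47, or 78.7%. In SLC16A12 the brighter probe carried the difference, and in SLC16A10 the dimmer one. Which transcripts each probe detects is unknown here, and the part of probe design in these gaps was not tested.

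**Figure D3:**
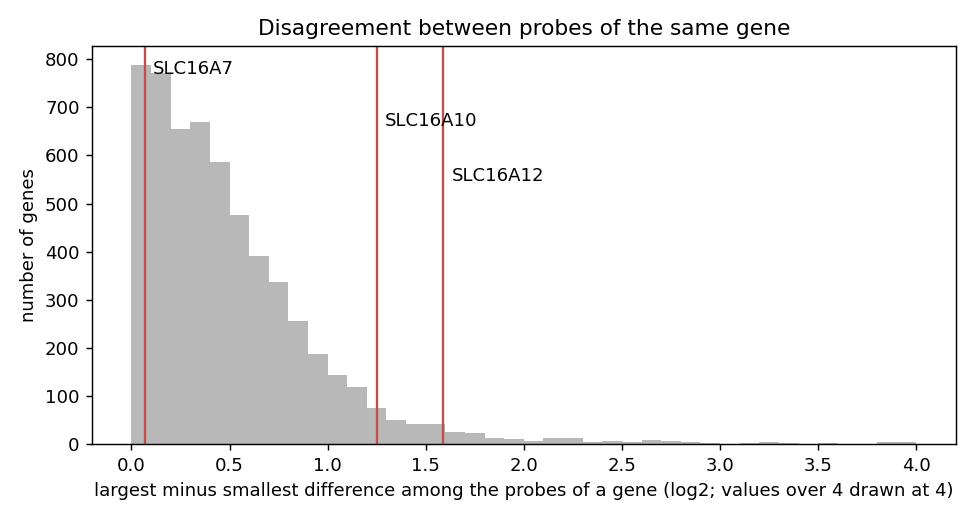
Histogram over 5751 genes with at least 2 probes of the gap between the largest and smallest log2 difference (PSC medium minus mock) of their probes, in bins along the x axis, with the number of genes on the y axis. Red lines mark SLC16A7 at 0.07, SLC16A10 at 1.25 and SLC16A12 at 1.59, the last in the thin right part of the distribution.

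Likeness of pattern was measured as the root mean square distance between the 4 centred log2 values of a probe and those of another gene's brightest probe, over 19089 genes. Nearest to the brighter SLC16A12 probe was the phospholipid flippase gene ATP8A1, at a distance of 0.05, with levels of 10.44 and 10.23 in PSC medium, against 11.92 and 12.03 in mock medium. TMEM170B followed at 0.09, and MAML3, which encodes a coactivator of NOTCH signalling, at 0.10. The brighter SLC16A10 probe, which hardly differed between media, had 895 of the 19089 genes within 0.1 of it. The nearest were NDRG4, CHST3 and TMEM178B. For SLC16A12 2 genes lay within 0.1. The distance was not scaled for the size of the differences, so these counts do not show which pattern was more common. With 4 arrays such likeness is a description only.

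Around the transporters, 61 measured genes in 8 lists were read by their brightest probe. The lists did not use the difference of the SLC16 genes, although they were written with earlier results of these arrays known. In the limma fit across all probes 0 of the 61 passed at an adjusted p of 0.05, beside 0.655% of all genes by brightest probe. At an unadjusted p under 0.05 there were 15, which was 24.6%, beside 21.4% of all genes by brightest probe. The groups did not overlap for 29 of the 61, against 53.5% of all genes. The median difference was 0.01 over the 61 and -0.01 over all genes. When the fit was made on 1 probe per gene, 2 of the 61 passed, GATM with a lower level in PSC medium and SLC7A5 with a higher one, beside 2.14% of all 19090 genes.

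Of the other SLC16 genes, 3 were measured and none passed in limma, with 0 at an unadjusted p under 0.05. SLC16A13 had a difference of 0.01 ± 0.16 SE and SLC16A4 of -0.10 ± 0.16 SE. SLC16A8, which encodes the lactate carrier of the retinal pigment epithelium, had -0.28 ± 0.28 SE. The sign of each of these 3 differences turned when a single array was left out.

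Among the partners and sodium-coupled carriers, 0 of 5 passed in limma, and 1, with a lower level, had an unadjusted p under 0.05 (median difference -0.18). That gene was EMB, the embigin gene. Its brighter probe had 12.27 and 12.14 in PSC medium, against 12.89 and 12.85 in mock medium (difference -0.66 ± 0.15 SE, limma adjusted p = 0.103). Its dimmer probe had the opposite sign, at 9.23 and 9.57 in PSC medium, against 8.43 and 8.43 in mock medium (0.97 ± 0.18 SE, limma adjusted p = 0.0802). The probes of EMB thus had opposite signs with the groups apart for each, and averaged they gave 0.15. For SLC16A10, by contrast, the groups overlapped on the brighter probe (0.18 ± 0.21 SE). BSG, the basigin gene, named after its values were seen, had 0.31 ± 0.19 SE and 0.36 ± 0.17 SE on its 2 probes, so these had the same sign. The sodium-coupled carrier gene SLC5A12 was very dim, with a difference of 0.71 ± 0.34 SE that was -2.10 without normalization and -2.23 with median centring.

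Lactate and pyruvate genes had 0 of 15 past the threshold in limma, and 2, both with a higher level, had an unadjusted p under 0.05 (median difference 0.08). LDHA, the lactate dehydrogenase subunit gene of glycolytic tissue, had levels of 17.20 and 17.33 in PSC medium, against 16.76 and 16.44 in mock medium. The groups did not overlap, and the difference was 0.66 ± 0.18 SE (limma adjusted p = 0.129). GPT, an alanine aminotransferase gene that links alanine and pyruvate, had 0.52 ± 0.17 SE (limma adjusted p = 0.17). For lactate sensing and acid handling, 0 of 6 passed in limma, with 0 at an unadjusted p under 0.05 (median 0.10). The sodium bicarbonate cotransporter gene SLC4A7 had 0.50 ± 0.34 SE on its brighter probe and 1.14 ± 0.18 SE on the other (limma adjusted p = 0.445 and 0.0677). The difference of the brighter SLC4A7 probe was 0.021 without mock array 1 and 0.98 without mock array 2. The carbonic anhydrase gene CA4 had 0.44 ± 0.26 SE, against -0.18 without normalization and -0.31 with median centring.

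Ketone body genes had 0 of 4 past the threshold in limma, and 1, with a lower level, had an unadjusted p under 0.05 (median -0.40, with 3 of the 4 negative). BDH2, a cytosolic hydroxybutyrate dehydrogenase gene, had 7.78 and 7.86 in PSC medium, against 8.17 and 8.51 in mock medium (difference -0.52 ± 0.18 SE, limma adjusted p = 0.191). BDH1, its mitochondrial counterpart, had -0.34 ± 0.17 SE on the brighter probe and 0.07 ± 0.17 SE on the other.

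Creatine and carnitine genes, whose solutes are those of SLC16A12 and SLC16A9, had 0 of 12 past the threshold in limma, and an unadjusted p under 0.05 was found for 2 with a higher and 2 with a lower level (median -0.07). GATM, the enzyme gene of the first step of creatine synthesis, had 5.32 and 5.25 in PSC medium, against 6.41 and 6.54 in mock medium. On this normalized scale the arrays within each group were close and the groups apart. The difference was -1.19 ± 0.15 SE (limma adjusted p = 0.0542, and 0.0323 in the fit on 1 probe per gene). Deposited intensities were 18 and 40 in PSC medium, against 88 and 101 in mock medium. The PSC medium arrays were thus close only after normalization. The brighter GATM probe is itself dim, and its difference was -1.81 without normalization and -1.94 with median centring. The other GATM probe, dimmer still, had -1.30 ± 0.39 SE. Its signal was near background, with deposited intensities of -19 and 8 in PSC medium, against 30 and 19 in mock medium. CKMT2, a mitochondrial creatine kinase gene, had 1.42 ± 0.25 SE (limma adjusted p = 0.0774), but its probe was near background, and the difference was -1.95 without normalization and -2.08 with median centring. CPT2 and CKB, named after their values were seen, lay above the median probe level. CPT2, the other gene with a lower level, had 13.65 and 13.55 in PSC medium, against 14.53 and 14.40 in mock medium (-0.87 ± 0.15 SE, limma adjusted p = 0.0776). CKB, the other with a higher level, had 0.64 ± 0.16 SE and 0.66 ± 0.19 SE on its 2 probes (limma adjusted p = 0.118 and 0.142).

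Genes of thyroid hormone and aromatic amino acid handling, the solutes of SLC16A10, had 0 of 9 past the threshold in limma, and an unadjusted p under 0.05 was found for 2 with a higher and 1 with a lower level (median -0.02). SLC7A5, the exchanger gene for large neutral amino acids, had 15.87 and 15.99 in PSC medium, against 14.74 and 14.86 in mock medium. Both PSC medium arrays were high, and the difference was 1.13 ± 0.15 SE (limma adjusted p = 0.0592, and 0.0373 in the fit on 1 probe per gene). SLC3A2, which encodes the heavy chain that pairs with it, had 16.41 and 16.16 in PSC medium, against 15.45 and 15.39 in mock medium (0.86 ± 0.17 SE, limma adjusted p = 0.0846). SLC7A8, another exchanger gene for neutral amino acids, named after its values were seen, was the one with the lower level. It had 13.09 and 12.85 in PSC medium, against 13.75 and 14.12 in mock medium (-0.96 ± 0.20 SE, limma adjusted p = 0.0917).

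Transcription factor genes tied to the transporters had 0 of 7 past the threshold in limma, and an unadjusted p under 0.05 was found for 3 with a higher and 1 with a lower level (median 0.32). MYC had 12.01 and 11.90 in PSC medium, against 10.83 and 11.29 in mock medium (0.90 ± 0.20 SE, limma adjusted p = 0.103). HIF1A, which encodes the oxygen-regulated subunit of the hypoxia factor, had 12.12 and 12.21 in PSC medium, against 12.84 and 12.78 in mock medium (-0.64 ± 0.15 SE, limma adjusted p = 0.106). Its other probe had the opposite sign at 0.31 ± 0.16 SE, so the probes of HIF1A gave no single direction.

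**Figure D4:**
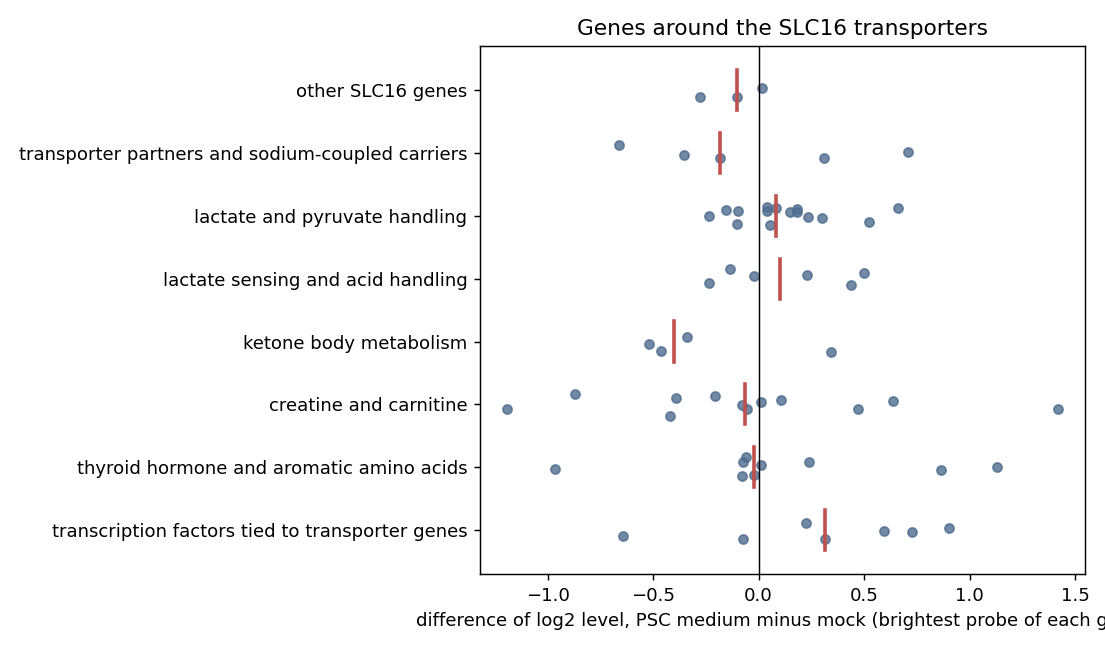
Difference of log2 level, PSC medium minus mock, on the x axis for the brightest probe of 61 genes in 8 lists, 1 row for each list, with red bars at the list medians. List medians run from -0.40 for ketone body metabolism to 0.32 for the transcription factors, with single genes from -1.19 (GATM) to 1.42 (CKMT2, whose difference was negative without normalization and with median centring).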

How the data were processed

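RNA of QGP-1 cells was amplified and labelled with a Cy5 dye, per the labels' protocols. The authors deposited 1 intensity per probe and array, on a linear scale and in whole numbers. Between 0 and 841 probes per array were below 0, so a background had been subtracted. For the scanner, its software and any scaling, the sources used here give no name.

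Array medians differed by 0.325 on the log2 scale, over the limit of 0.2, so the arrays were quantile normalized, values under 1 were set to 1, and log2 was taken. Genes were named from the probe table of the platform: 25893 of 28264 probes had 1 gene, none had several, 2371 had none, and all 25893 matched RefSeq of GRCh38.p14 by Entrez ID. Groups were compared probe by probe with limma 3.58.1 in R 4.3.3 (lmFit, eBayes, two-sided), with 3.25 prior and 2 residual degrees of freedom. Benjamini-Hochberg adjustment ran over all probes. The procedure was run on simulated data with independent normal noise, where only the median size of known differences was checked. Numbers of calls were not checked there. Within a group 105 probes (PSC medium) and 121 probes (mock) held identical values on both arrays, so arrays were not copies.

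The members and lists were chosen with earlier results of these data known. Named were every member probe, the other SLC16 genes measured, every listed gene past the threshold, and the 2 with the smallest p in each list. BSG, SLC7A8, CPT2 and CKB were named beyond that rule, after their values were seen. Of 68 listed genes, 7 were not analysed here. Nearest patterns were the 3 closest genes for the member probes above the median level with the largest positive and the largest negative difference. Alternatives covered normalization, low values, dim probes, the threshold, probes of a gene, the prior for the variance, the replicate number and each array left out. Python 3.11.15 with matplotlib 3.10.9 drew the figures.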

Additional observations from a re-analysis of the deposited data

How the results depend on the processing

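The number of probes past the threshold, 179 in the analysis as reported, depended strongly on the settings. It was 105 with median centring, 2426 with 50 added before log2, 2637 with probes under the median level left out, 82 with the probes of a gene averaged, 409 with 1 brightest probe per gene, 4340 with a trended and robust variance prior and 2 at an adjusted p under 0.01. With the replicate number as a block it was 2, and with 1 array left out it ranged from 0 to 4. Each omission leaves 1 array in a group, which is assumed to vary like the others, and 1 residual degree of freedom. Calls with the higher level in PSC medium made up 60.9% as reported, 15.7% without normalization and 16.2% with median centring. Median centring put the median difference of all probes at -0.11, against -0.01 as reported.

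The SLC16 probes past the threshold numbered 1 as reported. They numbered 0 without normalization, with median centring, with probes averaged, with the replicate number as a block and at an adjusted p under 0.01, and 0 with any 1 array left out. They numbered 2 with 50 added and 2 with the trended prior, the second being the dimmer SLC16A10 probe. By gene, 1 member passed by its brightest probe and 0 with probes averaged. The brighter SLC16A12 probe kept its sign in all 11 alternatives and the dimmer SLC16A10 probe in all 9 that could be run for it. Among the uncalled probes the sign turned in 1 alternative each for SLC16A5, SLC16A9, the brighter probes of SLC16A7 and SLC16A10 and the dimmer probe of SLC16A12, and in 2 for SLC16A14. The cause was not tested.

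Of the 61 listed genes 0 passed as reported, 11 with 50 added, 11 with dim probes left out, 2 with 1 probe per gene and 12 with the trended prior. With 1 array left out, SLC16A13 ranged from -0.081 to 0.11, SLC16A4 from -0.22 to 0.015 and SLC16A8 from -0.58 to 0.023. EMB was 0.15 with its probes averaged. Without normalization SLC5A12 was -2.10, CA4 -0.18 and CKMT2 -1.95, and with median centring they were -2.23, -0.31 and -2.08. These 3 probes are dim, with signal close to background, and before normalization 848 and 175 probes were at or below 0 on PSC medium arrays 1 and 2, against 0 and 30 on mock arrays 1 and 2.

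The arrays share replicate numbers, but the labels do not say that a number marks a shared culture or day, and the deviations of same-numbered arrays had a correlation of 0.06 across probes. That correlation runs over all probes, dim ones included, and cannot tell whether same-numbered arrays were paired. Whether they were is unknown, and with the number as a block 2 probes were past the threshold.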
